A study of Mus musculus with 22 samples.

Results

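Gene expression below T6 (caudal) was compared in mouse spinal cord 24 h after clamping of the aorta and after sham surgery. The comparison rests on 6 of the 22 Affymetrix Mouse430_2 arrays of the study, 3 at 24 h (numbered 281, 282 and 283) and 3 sham (278, 279 and 280), chosen by region, treatment and time as the labels give them. All animals were wild-type C57Bl/6 mice aged 10 to 12 weeks, and no group carried a mutation or a transgene. The 24 h mice had the aorta clamped for 7.5 min, which stops the blood supply of the lower cord and lets it return. The sham mice had surgery without the clamp. The labels give no time for the sham group and do not say whether each array is a separate animal. The p-values therefore measure only the spread between arrays, pooled over all 6 groups of the series that were fitted. Total RNA came from whole cord below T6, and fewer cells of a type and less RNA per cell cannot be told apart in it. For context, values are also given for 4 caudal arrays at 48 h (271 to 274) and for rostral cord, taken above T6, with 4 sham arrays (277 to 280) and 3 at 24 h (281 to 283).

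Loss of blood flow starves neurons and glia of oxygen and glucose, and injury continues after flow returns. Microglia, the resident macrophages of the cord, respond early: they take up debris and lipid and release chemokines, which are small proteins that attract leukocytes. Interferons and NF-kappaB, a transcription factor switched on by danger signals, drive many of the genes in this response, while heat shock proteins refold damaged proteins.

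Values are log2 signals, so a difference of 1 is a 2-fold difference. Array medians of the 6 arrays lay between 6.85 and 6.88. The sham array 280 had a 5′ minus 3′ difference of -0.68 for Gapdh, a measure of RNA quality, against -0.20 to 0.01 on the other 5, and the part of this in the results was not tested. Defining markers of cord tissue were high on all 6 arrays. The mean level of 16 pan-neuronal genes was 12.30 to 12.37 on sham and 12.19 to 12.29 on 24 h arrays, and that of 15 myelin genes was 11.83 to 11.87 and 11.85 to 11.99.

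One of the 3 arrays at 24 h stood apart. Hox genes keep the position of a cell along the body axis, and Hoxc10, Hoxd10 and Hoxa10 belong to the lower cord. Hoxc10 was 10.21, 10.16 and 10.48 on the sham caudal arrays and 10.32 and 10.19 on caudal 281 and 282, but 5.67 on the array labelled caudal 283. The array labelled rostral 283 read 10.14, whereas the 4 rostral sham arrays read 5.35 to 6.22. Hoxc5, a gene of the upper cord, read 8.22 on the former array and 6.07 on the latter. Of the 6 Hox genes that differed at least 2-fold between the sham regions, all 6 were nearer the rostral sham mean on the array labelled caudal 283 and nearer the caudal sham mean on the array labelled rostral 283. On each of the other 20 arrays all 6 went with the label. The array labelled caudal 283 also carried transcripts of fat and muscle. Adipoq, the fat hormone adiponectin, was 7.70 there against 4.18 to 4.62 on sham caudal arrays, and Acta1, the actin of skeletal muscle, was 8.80 against 5.31 to 6.07. Changes, counts and medians are therefore given with all 3 arrays and without the array labelled caudal 283. No array was moved to another group.

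**Figure D1:**
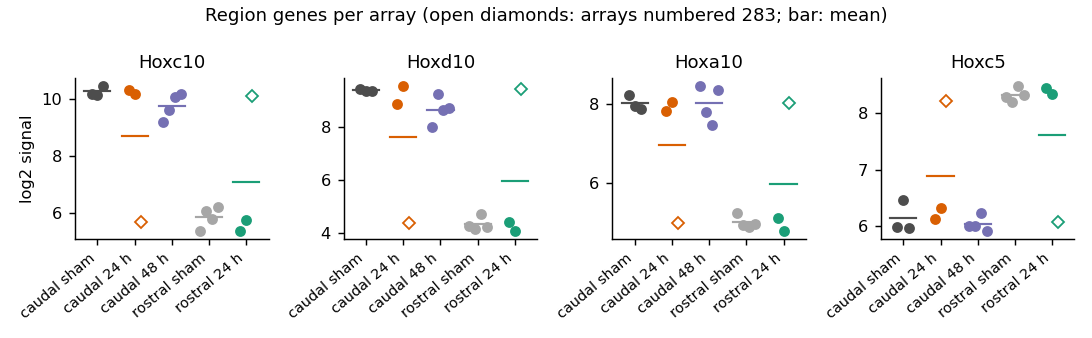
Log2 signal of 4 Hox genes on each array of 5 groups (points), with the group mean as a bar and the arrays numbered 283 as open diamonds. The array labelled caudal 283 lies at 5.67 for Hoxc10 among the rostral arrays, and the array labelled rostral 283 lies at 10.14 among the caudal ones.

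A single gene passed the test at 24 h. Lpl, which encodes the lipoprotein lipase that frees fatty acids from lipoproteins and which activated microglia also make, rose by 1.60 ± 0.21 (SE; limma adjusted p = 0.00903). Its level was 8.003, 8.04 and 8.15 on the sham arrays and 9.76, 9.73 and 9.51 on arrays 281, 282 and 283. The groups did not overlap, and the 3 arrays at 24 h lay within a narrow range. Without the array labelled caudal 283 the rise was 1.68 ± 0.24 (SE; limma adjusted p = 0.0366), and Lpl was again the one gene called. Thus 0.0055% of the 18193 genes tested passed with all arrays, and 0.0055% without the array labelled caudal 283. At an unadjusted p under 0.05, 529 genes stood out with all arrays and 352 without it. A second Lpl probe set read 5.73, 5.70 and 5.35 in sham and 6.998, 7.45 and 7.18 at 24 h, without overlap.

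Fat and heart muscle are rich in Lpl, so their markers were set beside it. On arrays 281 and 282 the median of 10 adipocyte genes differed from the sham mean by -0.06 and -0.01, and Adipoq was 4.28 and 4.25, within the sham range. The cardiac myosin Myh6 was 4.10 to 4.38 on the 3 arrays at 24 h and 4.09 to 4.23 in sham. Cox6a2, also of the cardiac list, was 7.80, 7.58 and 8.03 at 24 h and 7.38 to 7.53 in sham, without overlap. Of 20 cardiac genes, 2 were higher and 0 lower without overlap with all arrays (8.66% and 10.5% of all genes). Without the array labelled caudal 283 they were 5 and 1 (13.3% and 14.4%). On 281, 282 and 283 the cardiac median was 0.09, 0.03 and 0.18 from the sham mean. The median of 15 skeletal muscle genes was -0.02, 0.23 and 1.17 there. On the array labelled caudal 283 the adipocyte median was 0.85 higher than in sham, and Lpl was 9.51. The part of fat or muscle tissue in the level of Lpl was not tested. In rostral cord Lpl was 8.25 to 8.49 in sham, 8.47 and 8.61 on 24 h arrays 281 and 282, and 9.38 on the array labelled rostral 283. The call was lost when any 1 of the other 5 arrays was left out. With all arrays as the start, the adjusted p was then 0.0753 without 281, 0.105 without 282, 0.106 without 278, 0.0915 without 279 and 0.058 without 280, while the change stayed between 1.55 and 1.68. Starting without the array labelled caudal 283, it was 0.881 without 281, 0.15 without 282, 0.281 without 278, 0.248 without 279 and 0.127 without 280. The call was also lost with rostral array 276, whose labels give both times, counted as 24 h (adjusted p = 1), and, without the array labelled caudal 283, with every probe set as its own feature (adjusted p = 0.0728). The count of called genes depended on the fit: limma's array weights gave 293 with all arrays and 13 without the array labelled caudal 283, and a fit of the compared arrays alone gave 1 and 5.

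Because 1 gene was called, the other genes are described by whether the groups overlap, and their values are no calls. In counts without overlap, sham means caudal sham. The array labelled caudal 283 was not set against rostral sham in these counts, and the part of region in its values was not tested. With all arrays, every 24 h array was above every sham array for 1575 genes (8.66% of those tested) and below for 1906 (10.5%). Without the array labelled caudal 283 these were 2425 genes (13.3%) and 2623 (14.4%). At least a 2-fold difference without overlap was seen for 17 genes higher (0.0934%) and 7 lower (0.0385%) with all arrays, and for 46 higher (0.253%) and 2 lower (0.011%) without it. These last counts rest on single arrays. Of the higher genes, starting with all arrays, there were 27 without array 282, and, starting without the array labelled caudal 283, 20 without 281 and 123 without 282. Of the lower genes, starting with all arrays, there were 27 without 281, 13 without 282, 14 without 279 and 15 without 280, and starting without the array labelled caudal 283 there were 13 without 281, 9 without 279 and 8 without 280.

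**Figure D2:**
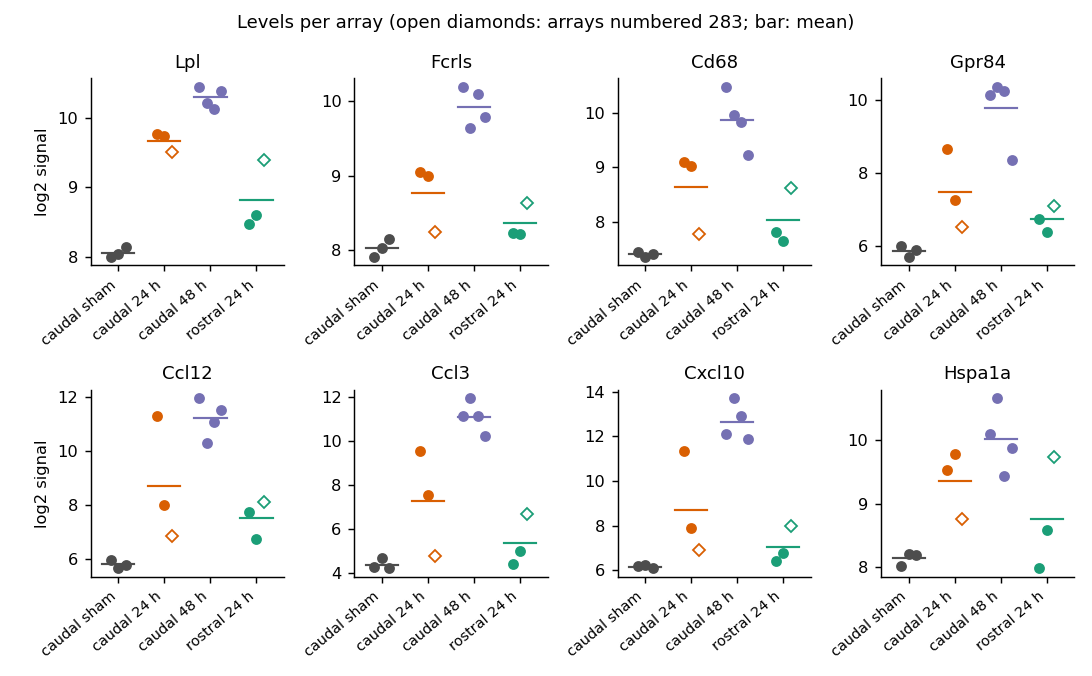
Log2 signal of 8 genes on each array in caudal sham, caudal 24 h, caudal 48 h and rostral 24 h cord (points; bar, group mean; open diamonds, arrays numbered 283). Lpl was 9.51 to 9.76 on the caudal 24 h arrays, whereas Ccl12 spread from 6.85 to 11.30.

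Several genes of microglia and macrophages had higher values at 24 h. Fcrls, an Fc receptor-like protein of microglia, was 7.91, 8.02 and 8.14 in sham and 9.05, 8.99 and 8.24 at 24 h. Arrays 281 and 282 lay well above caudal sham, and the array labelled caudal 283 just above it. Rostral sham read 8.233 to 8.455 for Fcrls, so the 8.244 of the array labelled caudal 283 lay within rostral sham. The change was 0.74 ± 0.18 (SE; limma unadjusted p = 0.00067, adjusted p = 1) with all arrays and 0.996 ± 0.16 (SE; limma adjusted p = 0.056) without the array labelled caudal 283. With both arrays numbered 283 left out, Fcrls was called together with Lpl (limma adjusted p = 0.0249 and 0.00334), 2 genes or 0.011% of those tested. Cd68, a lysosomal protein of phagocytes, was 7.45, 7.36 and 7.42 in sham and 9.09, 9.03 and 7.78 at 24 h, again with 281 and 282 close together. Rostral sham read 7.468 to 7.775 for Cd68, just below the 7.78 of the array labelled caudal 283. The change in Cd68 was 1.23 ± 0.37 (SE) with all arrays and 1.66 ± 0.36 (SE; limma adjusted p = 0.72) without the array labelled caudal 283. Gpr84, a receptor for fatty acids on activated myeloid cells, was 6.00, 5.70 and 5.88 in sham and 8.66, 7.26 and 6.51 at 24 h.

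Among 16 measured genes of activated microglia, 7 were higher without overlap and 1, the lipid carrier Apoe, lower with all arrays, and 12 were higher and 1 lower without the array labelled caudal 283. Over all genes 8.66% were higher and 10.5% lower with all arrays, and 13.3% and 14.4% without it. Their median change was 0.34 and 0.45, beside -0.004 and -0.0061 over all genes. Gpnmb, a glycoprotein of lipid-laden phagocytes, changed by 0.60 ± 0.19 (SE) with all arrays and 0.81 ± 0.19 (SE) without that array. Clec7a, the beta-glucan receptor dectin-1, read 7.26 to 7.62 in sham and 9.26, 8.72 and 7.46 on 281, 282 and 283, so that the array labelled caudal 283 lay within sham. Homeostatic microglial genes, which mark resting cells, had a median change of 0.02 with all arrays and -0.03 without the array labelled caudal 283. In that group of 12, Fcrls, Cx3cr1 and Olfml3 were higher without overlap with and without it, and none was lower. The purine receptor P2ry12 read 7.28 to 8.60 in sham and 6.91, 8.14 and 8.98 at 24 h, spanning the sham range.

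Complement tags debris and synapses for removal by microglia. Of its 12 measured genes, 5 were higher without overlap with all arrays and 7 without the array labelled caudal 283, beside 8.66% and 13.3% of all genes, with median changes of 0.46 and 0.43. The 3 chains of C1q, the first component, moved alike: C1qa changed by 0.47 ± 0.15 (SE), C1qb by 0.60 ± 0.27 and C1qc by 0.48 ± 0.16 with all arrays, and by 0.55 ± 0.17, 0.72 ± 0.31 and 0.56 ± 0.18 without the array labelled caudal 283. On the array labelled caudal 283, C1qa, C1qb and C1qc read 10.768, 10.37 and 9.979. These were above caudal sham but below every rostral sham array, where the lowest values were 10.788, 10.387 and 9.988. C3ar1, the receptor for the C3a fragment, was 6.78 to 6.94 in caudal sham and 8.09, 8.37 and 7.03 at 24 h. Rostral sham read 7.037 to 7.158 for C3ar1. Among 17 genes of monocytes and macrophages the median change was 0.06 and 0.09, and 4 and 5 were higher without overlap, beside 8.66% and 13.3% of all genes. The 4 were Cd14, Fcgr1, Fcgr3 and Msr1, and Adgre1 joined them without the array labelled caudal 283. Fcgr1, an antibody receptor, changed by 0.96 ± 0.29 (SE) with all arrays and 1.28 ± 0.29 without it, and Cd14, which hands endotoxin to Toll-like receptors, by 1.15 ± 0.52 and 1.61 ± 0.55. Fcgr3, another antibody receptor, was 7.81, 7.98 and 7.56 in caudal sham and 8.47, 8.05 and 8.32 at 24 h. Fcgr1, Cd14 and Fcgr3 on the array labelled caudal 283 (6.99, 7.698 and 8.32) lay within rostral sham. The rostral sham ranges were 6.954 to 7.106, 7.524 to 7.774 and 8.176 to 8.542. Ccr2, the chemokine receptor of incoming monocytes, was 7.39 to 7.74 in sham and 7.91, 7.38 and 7.99 at 24 h, and the lysozyme Lyz2 was 9.58 to 10.18 and 9.80, 9.53 and 9.67. Both overlapped sham. Lymphocyte genes stayed near sham on each array, with medians of 0.05, 0.01 and 0.05 on 281, 282 and 283.

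The chemokines Ccl12, Ccl3 and Cxcl10 were higher on every 24 h array than on every caudal sham array, and their levels were uneven between the 24 h arrays. Ccl12, which draws monocytes through Ccr2, was 5.97, 5.67 and 5.78 in sham and 11.30, 8.01 and 6.85 at 24 h. Ccl3, which draws myeloid cells, was 4.29, 4.68 and 4.23 in sham, below the lower quartile of the arrays (5.17 to 5.25), and 9.56, 7.58 and 4.78 at 24 h. The array labelled caudal 283 was below that quartile too, so the size of the Ccl3 difference was taken against a signal near the floor of the arrays. Cxcl10, an interferon-induced attractant of T cells, was 6.17, 6.21 and 6.08 in sham and 11.37, 7.87 and 6.89 at 24 h. In all 3 genes no 24 h array overlapped caudal sham, and array 281 was highest and the array labelled caudal 283 lowest. Rostral sham read 5.759 to 6.797 for Ccl12, 4.351 to 4.726 for Ccl3 and 6.346 to 6.601 for Cxcl10. The array labelled caudal 283, with its rostral Hox genes, thus lay just above rostral sham for Ccl12 and Ccl3, and further above it for Cxcl10. The changes were 2.91 ± 0.77 (SE) for Ccl12, 2.90 ± 0.90 for Ccl3 and 2.56 ± 0.86 for Cxcl10 with all arrays, each at a limma adjusted p of 1. Without the array labelled caudal 283 they were 3.85 ± 0.73 (SE; limma adjusted p = 0.215), 4.17 ± 0.79 (adjusted p = 0.215) and 3.46 ± 0.86 (adjusted p = 1). Of the 20 chemokines measured, 8 were higher without overlap with all arrays and 12 without that array (8.66% and 13.3% of all genes), none was lower, and the median change was 0.32 and 0.40. Cxcl12, was 9.05 to 9.27 in sham and 9.05, 8.90 and 8.67 at 24 h, overlapping sham.

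Promoters of 4 genes with higher values are shown because they belong to the groups described here, 2 chemokines, an interferon-induced gene and a heat shock gene. They run from 250 bases before to 50 bases after the start of the gene, are taken from RefSeq (GRCm38.p6), and hold capitals where a motif was found: the NF-kappaB consensus, the interferon-stimulated response element ISRE (GAAANNGAAA) or the heat shock element (GAANNTTC), each searched on both strands. They lie at chr11:82101595-82101894 (+ strand) for Ccl12, chr5:92348840-92349139 (- strand) for Cxcl10, chr19:34640639-34640938 (+ strand) for Ifit1 and chr17:34972107-34972406 (- strand) for Hspa1a, and are written 5′ to 3′ along the gene.
Ccl12: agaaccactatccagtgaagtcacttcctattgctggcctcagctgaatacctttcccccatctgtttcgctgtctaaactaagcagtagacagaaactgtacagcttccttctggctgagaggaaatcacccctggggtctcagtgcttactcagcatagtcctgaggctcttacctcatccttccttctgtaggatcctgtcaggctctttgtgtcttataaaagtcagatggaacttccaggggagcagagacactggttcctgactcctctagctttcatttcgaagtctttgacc
Cxcl10: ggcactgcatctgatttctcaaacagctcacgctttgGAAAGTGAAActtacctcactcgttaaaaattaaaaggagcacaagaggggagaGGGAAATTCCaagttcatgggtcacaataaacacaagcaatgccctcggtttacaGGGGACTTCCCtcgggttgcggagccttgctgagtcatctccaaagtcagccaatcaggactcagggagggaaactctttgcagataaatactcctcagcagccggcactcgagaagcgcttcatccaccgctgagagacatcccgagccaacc
Ifit1: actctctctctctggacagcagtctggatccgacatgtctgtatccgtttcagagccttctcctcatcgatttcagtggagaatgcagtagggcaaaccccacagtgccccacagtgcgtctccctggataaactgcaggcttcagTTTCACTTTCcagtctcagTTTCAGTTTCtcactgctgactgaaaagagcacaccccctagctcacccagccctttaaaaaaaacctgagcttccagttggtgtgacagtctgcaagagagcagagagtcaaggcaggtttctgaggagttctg
Hspa1a: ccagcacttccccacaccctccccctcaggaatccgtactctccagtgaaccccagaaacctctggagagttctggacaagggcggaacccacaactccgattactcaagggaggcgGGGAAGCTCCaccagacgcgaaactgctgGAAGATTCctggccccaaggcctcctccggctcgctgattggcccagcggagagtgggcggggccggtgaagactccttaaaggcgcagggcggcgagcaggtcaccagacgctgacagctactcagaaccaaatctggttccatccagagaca
The Cxcl10 window held an ISRE 213 bases before the start and NF-kappaB matches at 159 bases and, overlapping each other, at 104 and 103 bases before it. Ifit1 held ISRE matches at 104 and 85 bases, and Hspa1a a heat shock element at 104 bases and an NF-kappaB match at 133. The Ccl12 window held none of these letters. Of 32851 promoters of this length, 8.46% held the NF-kappaB match, 3.44% the ISRE and 7.86% the heat shock element. A promoter was at hand for 10 of the 15 genes named as the largest rises in either comparison, and among these 2 held the NF-kappaB match, 4 the ISRE and 2 the heat shock element.

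Cytokines and NF-kappaB targets were high mostly on array 281. Il6, the cytokine that signals through Stat3, was 3.89, 4.03 and 3.92 in sham, near the floor of these arrays, and 8.42, 3.87 and 3.89 at 24 h. Only array 281 was above sham. Socs3, the feedback inhibitor of that pathway, read 6.30 to 6.62 in sham and 9.88, 7.08 and 6.42 at 24 h, so that the array labelled caudal 283 overlapped sham. Ptgs2, the inducible cyclooxygenase, was 5.74 to 6.41 in sham and 8.07, 6.90 and 6.54 at 24 h, and Tlr2, a Toll-like receptor, was 6.41 to 6.56 and 8.19, 7.55 and 6.81; neither overlapped. Of 25 genes in the group, 9 were higher without overlap with all arrays and 14 without the array labelled caudal 283 (8.66% and 13.3% of all genes), and none was lower. Their median difference from sham was 0.98 on array 281, 0.13 on 282 and 0.10 on 283. The classic cytokine Tnf read 6.00 to 6.46 in sham and 6.90, 6.50 and 6.38 at 24 h, overlapping sham.

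Interferon-induced genes were graded between the arrays. All 18 measured were higher on arrays 281 and 282 than on every sham array, against 13.3% of all genes, but with the array labelled caudal 283 included 4 of 18 were, against 8.66%. The median difference from sham was 1.69 on 281, 0.62 on 282 and 0.03 on 283. Ifit1, an antiviral RNA-binding protein, was 7.72, 7.45 and 7.32 in sham and 10.52, 8.55 and 7.44 at 24 h. Rsad2, the antiviral enzyme viperin, was 7.91, 7.78 and 8.03 and then 11.64, 8.52 and 7.74, and the array labelled caudal 283 was below each sham array. Iigp1, an interferon-induced GTPase, changed by 1.46 ± 0.63 (SE) with all arrays and 1.97 ± 0.68 without the array labelled caudal 283, and Usp18, which restrains interferon signalling, by 1.41 ± 0.62 and 2.07 ± 0.63. None passed the adjusted test in either comparison. At an unadjusted limma p under 0.05 there were 4 of the 18 with all arrays and 10 without that array. Of 14 genes of antigen presentation, 2 were higher without overlap with all arrays, the class I genes H2-D1 and B2m, and 7 without the array labelled caudal 283 (8.66% and 13.3% of all genes). In both comparisons 4 were lower without overlap (10.5% and 14.4% of all genes), the class II genes H2-Aa, H2-Ab1 and H2-Eb1 and the chaperone Cd74. Their changes were -0.54, -0.52, -0.31 and -0.31 with all arrays and -0.48, -0.46, -0.22 and -0.22 without that array, none of them called. B2m and Cd74 on the array labelled caudal 283 (12.568 and 8.464) lay within rostral sham. The rostral sham ranges were 12.314 to 12.605 and 8.257 to 8.512.

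**Figure D3:**
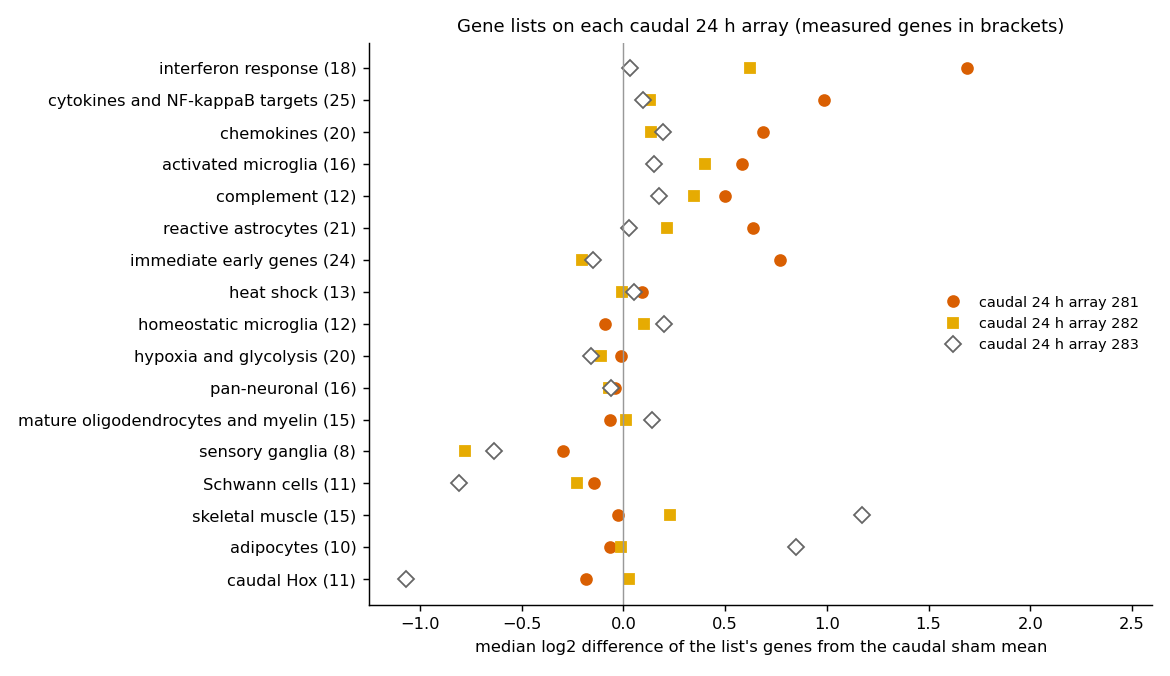
Median log2 difference from the caudal sham mean of the genes of 17 lists on each caudal 24 h array, with the number of measured genes in brackets. The interferon list lies at 1.69 on array 281, 0.62 on 282 and 0.03 on the array labelled caudal 283, while the muscle, adipocyte and caudal Hox lists set the array labelled caudal 283 apart.

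Arrays 281 and 282 also differed from each other. Array 281 was the highest of the 3 for 18 of 18 interferon genes, 24 of 24 immediate early genes, 23 of 25 cytokines and NF-kappaB targets and 18 of 20 chemokines. Over all genes it was highest for 41.1%. Immediate early genes, which follow cell stimulation within minutes, had a median difference from sham of 0.77 on 281, -0.20 on 282 and -0.15 on 283. Fos was 9.39 to 9.66 in sham and 11.45, 9.74 and 9.90 at 24 h, and Atf3, a stress transcription factor also switched on in injured neurons, was 6.25 to 6.58 and 8.60, 7.28 and 6.93. Both lay above caudal sham on every array. On the array labelled caudal 283, however, Atf3 at 6.93 lay within the 6.865 to 7.242 of the rostral sham arrays. In Lpl, Cd68 and Fcrls, arrays 281 and 282 lay close together.

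Heat shock and reactive astrocyte genes differed from sham as follows. Hspa1a, an inducible Hsp70, was 8.02, 8.20 and 8.18 in sham and 9.53, 9.78 and 8.75 at 24 h, without overlap, a change of 1.22 ± 0.37 (SE) with all arrays and 1.52 ± 0.39 without the array labelled caudal 283. Its near-identical copy Hspa1b, with which it may share signal, changed by 1.17 ± 0.49 (SE) and 1.25 ± 0.56. Of 13 heat shock genes 3 were higher without overlap with all arrays and 4 without the array labelled caudal 283 (8.66% and 13.3% of all genes), and the median was 0.05 and 0.06. Reactive astrocyte genes had a median change of 0.31 and 0.41, with 6 and 10 of 21 higher without overlap (8.66% and 13.3% of all genes) and 2 lower both times (10.5% and 14.4%). Gfap, the intermediate filament of astrocytes, was 11.88, 12.07 and 11.85 in sham and 12.29, 12.34 and 12.35 at 24 h, a tight group above sham, and changed by 0.39 ± 0.18 (SE) with all arrays and 0.38 ± 0.20 without the array labelled caudal 283. Timp1, a protease inhibitor, was 6.60 to 7.01 in sham and 8.81, 7.25 and 7.19 at 24 h. Among 20 genes of hypoxia and glycolysis, 0 were higher without overlap in either comparison, beside 8.66% and 13.3% of all genes. Of these 20 genes, 6 with all arrays and 7 without the array labelled caudal 283 were lower, beside 10.5% and 14.4% of all genes. Among them was the vessel growth factor Vegfa at -0.31 ± 0.17 (SE) with all arrays and -0.36 ± 0.19 without it. The median was -0.10 and -0.04.

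**Figure D4:**
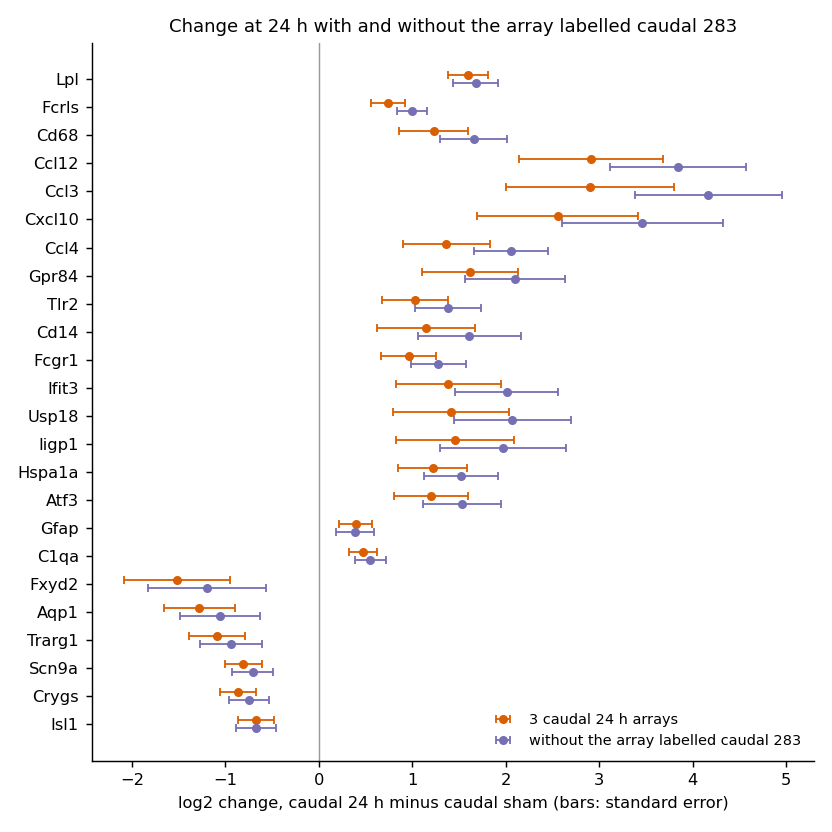
Log2 change of 24 genes at 24 h against caudal sham with its standard error, fitted with limma with all 3 arrays and without the array labelled caudal 283. Lpl (1.60 and 1.68) is the one gene called in both, and the errors of the chemokines are several times those of Lpl.

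The 7 genes at least 2-fold lower without overlap with all arrays each had a lower mean in rostral than in caudal sham cord. Starting with all arrays, which direction held more genes depended on array 281. Without it 14 were higher and 27 lower, against 17 and 7 with it. Starting without the array labelled caudal 283, higher genes outnumbered lower ones both with and without 281. Fxyd2, a subunit of the sodium pump, was 9.31, 9.18 and 8.88 in caudal sham and 8.64, 7.21 and 6.98 at 24 h, and its mean in rostral sham was 6.60. The water channel Aqp1 was 7.61, 7.62 and 7.59 in caudal sham and 6.78, 6.32 and 5.89 at 24 h, against 5.17 in rostral sham. Neither overlapped, and in both the array labelled caudal 283 was lowest. The fitted changes were -1.51 ± 0.57 (SE) for Fxyd2 and -1.28 ± 0.38 for Aqp1 with all arrays, and -1.20 ± 0.63 and -1.06 ± 0.43 without the array labelled caudal 283, with a limma adjusted p of 1 each time. Another 5 genes were at least 2-fold lower without overlap with all arrays, and lower by less than 2-fold without that array: Mlip, Hoxd9, the myelin protein Pmp2, Trarg1 and Sbspon. Their rostral sham means were 6.44, 7.43, 5.24, 5.69 and 5.47, and their levels on the array labelled caudal 283 were 6.88, 7.46, 5.39, 6.10 and 5.67, whereas caudal sham means were 9.11, 10.13, 7.83, 7.50 and 7.98. Without the array labelled caudal 283 the change in Hoxd9 was -0.37 ± 0.50 (SE) and that in Pmp2 was -0.46 ± 0.40, compared with -1.14 and -1.12 with it.

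Genes of sensory neurons had lower means at 24 h. The sodium channel Scn9a of pain-sensing neurons was 7.21, 7.09 and 7.10 in sham and 6.49, 6.36 and 6.13 at 24 h, and the homeobox gene Isl1, expressed in sensory and motor neurons, was 7.25, 7.28 and 6.82 and then 6.67, 6.21 and 6.44. Neither overlapped sham with or without the array labelled caudal 283, and the changes without it were -0.71 ± 0.22 (SE) and -0.67 ± 0.22, not called. All 8 measured genes of sensory ganglia, which lie beside the cord, had a lower mean at 24 h, with a median change of -0.56 with all arrays and -0.54 without that array, but only Isl1 and the ATP receptor P2rx3 did so without overlap. Sham arrays differed among themselves in this group, with a median of 0.12, 0.22 and -0.42 from the sham mean on 278, 279 and 280, beside -0.30, -0.78 and -0.64 on 281, 282 and 283. Pirt, a partner of pain receptors, was 8.39, 8.39 and 7.34 in sham and 7.62, 6.08 and 5.80 at 24 h, so that the sham array 280 overlapped array 281. The 8 genes are also low in rostral sham, where Pirt had a mean of 5.40. How much ganglion tissue each sample held was not measured, and its part in these values was not tested. Schwann cell genes, which mark the nerve roots, had a median of -0.14 on 281, -0.23 on 282 and -0.81 on 283.

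**Figure D5:**
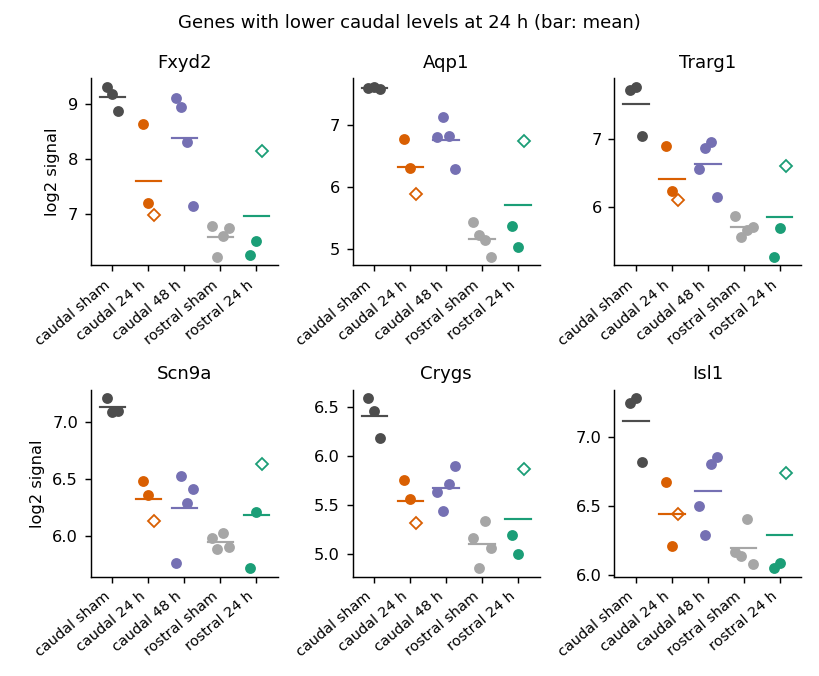
Log2 signal of 6 genes with lower caudal values at 24 h, on each array of caudal sham, caudal 24 h, caudal 48 h, rostral sham and rostral 24 h cord (points; bar, group mean; open diamonds, arrays numbered 283). Aqp1 lies at 7.59 to 7.62 in caudal sham and at 5.89 to 6.78 at 24 h, and its rostral sham mean is 5.17.

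Neuronal and myelin genes as groups lay close to sham. The median change of 16 pan-neuronal genes was -0.06 with and without the array labelled caudal 283, and 3 of them, Tubb3, Uchl1 and Elavl4, were lower without overlap in both, beside 10.5% and 14.4% of all genes. Of 15 genes of myelin and mature oligodendrocytes the median was 0.02 and 0.00, and of 14 genes of oligodendrocyte precursors 0.00 and -0.01. Motor neuron genes had a median of -0.10 and -0.11 over 14 genes. Of 23 endothelial and barrier genes, 4 were lower without overlap in both comparisons (10.5% and 14.4% of all genes), including the VEGF receptor Kdr at 8.70 to 8.84 in sham and 8.38 to 8.44 at 24 h. Among 15 homeostatic astrocyte genes, 2 were lower without overlap with all arrays and 4 without the array labelled caudal 283, beside 10.5% and 14.4% of all genes. One of the 4 was Slc7a10, an amino acid transporter, at 10.41 to 10.72 in sham and 9.54 and 10.24 on arrays 281 and 282. Dao, an astrocyte enzyme that breaks down D-amino acids, was 8.01 to 8.35 in sham and 7.30 and 7.67 on these arrays. On the array labelled caudal 283, both were within the sham range.

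Other stress programmes, proliferation and neutrophils were measured by lists of their genes. Those of the unfolded protein and integrated stress response had a median change of 0.10 with and without the array labelled caudal 283, with 3 and 4 of 18 higher without overlap, beside 8.66% and 13.3% of all genes. NRF2 targets and metallothioneins, which answer oxidative stress, had a median of 0.04 and 0.08, and p53 targets, switched on by DNA damage, of 0.02 and 0.09. Glucocorticoid-induced genes, which follow stress hormones, had a median of -0.09 and -0.05, with 4 of 18 lower without overlap both times, beside 10.5% and 14.4% of all genes. On the single arrays their median was 0.16, -0.25 and -0.27 from the sham mean on 281, 282 and 283. Neutrophil genes had a median of -0.31 and -0.20, and 0 and 1 of 13 were higher without overlap, beside 8.66% and 13.3% of all genes. The sham arrays spread more widely than that in this list, with medians of 0.15, -0.92 and 0.77 from the sham mean on 278, 279 and 280. Cell cycle genes had a median of -0.04 and 0.01, and 1 and 5 of 23 were higher without overlap, beside the same shares of all genes.

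Levels at 24 h were set beside those at 48 h. Caudal 48 h arrays were higher than 24 h arrays for 771 genes (4.24%) and lower for 446 (2.45%) with all arrays (limma, adjusted p under 0.05), and for 232 (1.28%) and 24 (0.132%) without the array labelled caudal 283. The total of 1217 was 256 without the array labelled caudal 283, 379 without array 282, 2252 without the 48 h array 273 and 3722 without the 48 h array 274. The 5′ minus 3′ difference for Gapdh was -1.05 on caudal 274, against -0.21 to 0 on caudal 271, 272 and 273. Caudal 271 had a median correlation with caudal sham of 0.9087, against 0.9741 to 0.9862 on caudal 272, 273 and 274. The part of these in the counts was not tested. Among interferon genes 17 of 18 were called higher at 48 h with all arrays and 6 without the array labelled caudal 283, among cytokines and NF-kappaB targets 20 and 11 of 25, and among chemokines 13 and 7 of 20. Ccl2, the main monocyte attractant, was 5.75 to 5.88 in sham, 9.05, 6.41 and 6.03 at 24 h and 9.59 to 12.89 at 48 h, a difference between the times of 4.44 ± 0.75 (SE; limma adjusted p = 0.00186) with all arrays and 3.87 ± 0.82 (adjusted p = 0.0269) without the array labelled caudal 283. Fcrls was 9.64 to 10.19 at 48 h, higher than at 24 h by 1.17 ± 0.17 (SE; limma adjusted p = 0.000715) with all arrays and by 0.91 ± 0.15 (adjusted p = 0.00693) without the array labelled caudal 283. Lpl was 10.13 to 10.44 at 48 h, and the difference from 24 h of 0.63 ± 0.20 (SE) was not called (limma adjusted p = 0.0668), nor that of 0.55 ± 0.23 without the array labelled caudal 283 (adjusted p = 0.259). The 48 h arrays held more cardiac muscle transcripts than the 24 h arrays: the median of 20 cardiac genes was 0.30 to 2.051 higher than in caudal sham, beside 0.03 to 0.18 at 24 h, and their part in the 48 h level of Lpl was not tested.

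Whether the 24 h response below T6 differed from that above it was tested as the difference between the clamp effects of the regions. With limma, 0 of 18193 genes (0%) passed with all arrays, with 337 at an unadjusted p under 0.05. The count was also 0 (0%) without the array labelled caudal 283 (213 unadjusted) and without both arrays numbered 283 (143 unadjusted). The interaction for Lpl was 1.15 ± 0.29 (SE; limma adjusted p = 1) with all arrays and 1.51 ± 0.27 (adjusted p = 0.332) without both arrays numbered 283. For Fcrls it was 0.75 ± 0.25 (adjusted p = 1) and 1.15 ± 0.20 (adjusted p = 0.332). On the rostral arrays 281 and 282, Ccl12 was 7.754 and 6.73, Ccl3 4.43 and 5.02, Cxcl10 6.42 and 6.77 and Hspa1a 7.98 and 8.58. Rostral sham read 5.759 to 6.797 for Ccl12, 4.351 to 4.726 for Ccl3 and 6.346 to 6.601 for Cxcl10. Ccl12 was thus above rostral sham on 281, and Ccl3 and Cxcl10 were above it on 282. Ccl3 on rostral 282 was below the lower quartile of that array (5.21), so this difference was near the floor. The array labelled rostral 283, whose Hox genes are those of caudal cord, read 8.118, 6.70, 7.98 and 9.73 for the 4 genes.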

How the data were processed

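Total RNA from mouse spinal cord was hybridised to Affymetrix Mouse430_2 arrays. The deposited values are log2 signals that the authors made with RMA (version not stated), per the submitters' processing notes. They were used as they are. Of 45101 probe sets, 34945 carry 1 gene symbol, 932 several and 9160 none listed. The probe set with the highest mean was taken for each gene, which gave 18193 genes.

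With limma 3.58.1 in R 4.3.3 (lmFit, eBayes), 6 group means were estimated from 21 arrays, or from 20 without the array labelled caudal 283, and all groups shared 1 estimate of the spread. Genes were called at a Benjamini-Hochberg adjusted p under 0.05, two-sided. The fit was checked on simulated data. The rostral array 276, labelled both 24 h and 48 h, entered no group. Numbers run with treatment and time, so an effect of that order cannot be told apart from them. With few arrays, their number limits the precision; arrays have no read depth.

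The comparison, the 43 gene lists and the rule for named genes were chosen with earlier results of these data known. Named were the 10 largest changes each way among called genes without overlap, filled up with the largest without overlap whose higher group was above the lower quartile, plus up to 4 members of each list with the smallest p and all Hox genes. The genes Tnf, Ccr2, Lyz2, Apoe, Cxcl12, Myh6, Msr1, H2-D1 and Cd74 lie outside this rule and were picked for their role after their values were seen. Alternatives changed the collapse to genes, filter, normalization, variance model, array weights, arrays fitted and replicate block, and left out each array.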

Additional observations from a re-analysis of the deposited data

Results flagged for a closer look

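Lpl was also high on rostral array 276, which is in no group because its labels give both 24 h and 48 h. It read 10.84 there, above the 8.25 to 8.49 of the rostral sham arrays. The median of 20 cardiac muscle genes on that array was 3.86 above the rostral sham mean, and the median of the adipocyte genes was -0.02 from it. Their part in the level of Lpl was not tested.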

How the results depend on the processing

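Arrays give signal and no depth, and with 3 against 3 arrays the count of called genes rests on few samples. No called value changed sign under a setting tried; uncalled list medians near 0 did. Lpl stayed called with a gene's probe sets averaged, the brighter genes only, quantile normalization repeated, arrays centred, eBayes with trend and robust, array weights, the compared or the caudal arrays alone, and without both arrays numbered 283. It was not called with array 276 counted as rostral 24 h (1.60, adjusted p = 1, 0 genes called), nor, without the array labelled caudal 283, with every probe set as its own feature (1.68, adjusted p = 0.0728, 0 genes called). Leaving out 1 array at a time gave a Lpl change of 1.55 to 1.68 and 0 to 1 genes called with all arrays, and 1.65 to 1.72 and 0 to 2 genes starting without the array labelled caudal 283. The cause was not tested.

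The count of called genes was 293 with array weights and all arrays (97 higher, 196 lower), and 2 without both arrays numbered 283. Without the array labelled caudal 283 it was 13 with array weights, 5 with the compared arrays alone (C3ar1, Cd68, Fcrls, Hspa1a and Lpl), and 2 with probe sets averaged, with the brighter genes only and with the random replicate block. With the title's number as a random replicate block Lpl was 1.61 (adjusted p = 0.0141) with all arrays, and 1.73 (adjusted p = 0.0315) without the array labelled caudal 283. Arrays of 1 number correlated in their deviations from the group means at -0.45 to 0.53. The lowest value was that of 283, whose Hox genes go against both labels, and the other numbers ran from -0.19 (281) to 0.53 (274). The numbers were not taken as pairs. A fixed replicate block could not be fitted for 24 h against sham, since no number has both, and was not run; for the difference between regions it called 0 genes.

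Without overlap, whatever the size, genes numbered 1575 higher and 1906 lower with all arrays, and 2425 and 2623 without the array labelled caudal 283. With the 2-fold minimum, leaving out 1 array gave 14 to 46 higher and 2 to 27 lower starting with all arrays, and 20 to 123 and 2 to 13 without the array labelled caudal 283, where averaging probe sets left 1 lower. The 48 h against 24 h count was 256 to 3722 with 1 array left out. For the single genes other than Lpl and for the lists, 1394 of the alternative values lay on the same side of the threshold or within the spread, 24 passed the threshold anew, 15 of them with array weights, and 212 moved further. With array weights and all arrays the genes passing anew included Fxyd2, Aqp1, Trarg1, Crygs, Scn9a, Isl1 and Cnmd, all lower at 24 h, and Cd68, Hspa1a and Fcrls, higher. Without the array labelled caudal 283 they included Ccl3, Ccl12, Ccl4, Cd68 and Fcrls, all higher.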
